A study of Mus musculus with 9 samples.

Results

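The 8 genes described here, Foxa1, Foxa2, Pax1, Pax9, Nkx2-1, Nkx2-3, Shh and Hhex, encode regulators of the pharyngeal endoderm, and their loci were examined in ATAC-seq peak lists of 9 libraries from mouse embryos at E9.5. They were chosen by name, with earlier results of these data known. A locus was the annotated gene body plus 50 kb on each side (mm9), and a peak was counted there when its midpoint lay in that window. All 8 genes held at least 1 peak, as did 20127 of the 22367 protein-coding genes of the annotation, and no 2 of the 8 windows overlapped. ATAC-seq uses a transposase that cuts accessible DNA, and a peak is an interval where such cuts pile up. A peak was called a promoter peak of a gene when its midpoint lay within 1 kb of a transcription start site (TSS) of that gene, and distal when it lay farther than that from every annotated TSS.

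Each library was made from pooled Swiss Webster embryos, from GFP-positive cells that excluded the dead-cell dye DAPI, and all embryos carried the reporter Rosa26-GFPflox/+, which Cre switches on. The 3 Mesp1-Cre Ctrl libraries had the genotype Mesp1Cre;Rosa26-GFPflox/+ and hold descendants of cells that had expressed Mesp1, a mesoderm gene. The 3 Tbx1-Cre Ctrl libraries (Tbx1Cre;Rosa26-GFPflox/+) and the 3 Tbx1-Cre cKO libraries (Tbx1Cre/flox;Rosa26-GFPflox/+) hold descendants of cells that had expressed the T-box gene Tbx1, which is active in pharyngeal mesoderm, endoderm and ectoderm. Cre sits in the Tbx1 locus, so the Tbx1-Cre Ctrl embryos themselves had 1 functional copy of Tbx1, and the cKO embryos had the floxed copy removed by the same Cre. The labels name pharyngeal mesoderm as the source and list the back of the embryo with the Tbx1-Cre tissue only, so that the dissection and the lineage cannot be told apart between the Mesp1-Cre and Tbx1-Cre groups. The labels include the heart in the tissue, whereas the methods describe the pharyngeal apparatus without it.

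The pharyngeal endoderm is the epithelium that lines the embryonic throat and folds outwards into the pharyngeal pouches, which later give rise to the thymus, the parathyroids and other glands. FOXA1 and FOXA2 are forkhead transcription factors that can open chromatin in endoderm. PAX1 and PAX9 are paired-box factors of the pouches, NKX2-1, NKX2-3 and HHEX are homeodomain factors of the thyroid and pharyngeal floor, and SHH is a secreted hedgehog ligand. Several of these genes are also active elsewhere, for example Pax1 and Pax9 in the sclerotome, and Foxa2 and Shh in the floor plate and notochord.

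Deposited lists held 25485 to 42650 peaks in Mesp1-Cre Ctrl, 43298 to 49490 in Tbx1-Cre Ctrl and 19772 to 29251 in Tbx1-Cre cKO, covering 12.9 to 22.1, 23.6 to 26.6 and 9.73 to 14.5 Mb. Of these peaks, 47.0 to 62.2%, 63.9 to 66.1% and 37.0 to 50.7% were distal, so list length and the distal share moved with the groups. Mesp1-Cre Ctrl replicate 1, with 42650 peaks, stood apart from the 25485 and 30535 of its group. The number of peaks in this list is not among those of the study's sample summary. The Mesp1-Cre lists also had a narrowest peak of 199 bp and 2 mitochondrial peaks each, against 200 bp and 0 in the 6 Tbx1-Cre lists, so that a difference in how the lists were made cannot be told apart from lineage in any comparison with Mesp1-Cre. The Tbx1 promoter held 1, 1 and 2 peaks in the Tbx1-Cre Ctrl libraries, 0 in each cKO library and 1, 1 and 0 in the Mesp1-Cre libraries. These counts cannot verify the genotypes, since a Mesp1-Cre library without the deletion also had none. Of 7 epithelial marker genes, 1 to 3 had a promoter peak per Mesp1-Cre library, 1 to 3 per Tbx1-Cre Ctrl library and 0 to 1 per cKO library, and the promoter of Cldn6 had none in any library. Of 9 cardiopharyngeal mesoderm genes, 4 to 7, 6 to 7 and 4 to 6 had one. Among all genes the share with a promoter peak was 62.3 to 68.9%, 67.9 to 68.9% and 58.1 to 64.0% per library. Read depth is unknown, fewer endoderm cells in a sort and less open chromatin in each of them cannot be told apart, and the absence of a peak does not show that the chromatin was closed.

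The peaks in the windows of the 8 genes were merged across libraries into 43 regions, each the union of overlapping peaks of the 9 lists. Of these, 8 lay at a promoter of a regulator, 1 at the promoter of another gene and 34 were distal. The sequences below are the central 200 bases of 4 distal regions, on the plus strand of mm9. They show the DNA behind the comparison of lineages, as regions called in Tbx1-Cre Ctrl and not in Mesp1-Cre, each found in 3 of the 6 Tbx1-Cre libraries, with 1 further region at Shh. The Pax1 region (chr2:147185601-147185800, intergenic) and the Pax9 region (chr12:57793859-57794058, in an intron of Pax9 and overlapping an exon of Gm15524) were called in all 3 Tbx1-Cre Ctrl libraries and in no other. The Foxa2 region (chr2:147849164-147849363, in an intron of 9030622O22Rik) was called in 2 Tbx1-Cre Ctrl libraries and 1 cKO library and in no Mesp1-Cre library. The Shh region (chr5:28791379-28791578, in an intron of Shh) was added after its values were seen, and was called in 3 Tbx1-Cre Ctrl libraries, 1 Mesp1-Cre library and no cKO library. Capitals mark matches to the T-box letters GGTGTGA or the forkhead letters TGTTTAC and TATTTAC on either strand.
Pax1 upstream region: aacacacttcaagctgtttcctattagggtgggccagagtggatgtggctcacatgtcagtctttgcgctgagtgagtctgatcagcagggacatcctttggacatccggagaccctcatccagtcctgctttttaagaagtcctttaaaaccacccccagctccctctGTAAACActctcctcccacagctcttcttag
Pax9 intronic region: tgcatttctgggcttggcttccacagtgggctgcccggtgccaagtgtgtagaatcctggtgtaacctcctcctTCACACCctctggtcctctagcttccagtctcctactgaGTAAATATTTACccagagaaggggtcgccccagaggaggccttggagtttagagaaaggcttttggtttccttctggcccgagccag
Foxa2 downstream region: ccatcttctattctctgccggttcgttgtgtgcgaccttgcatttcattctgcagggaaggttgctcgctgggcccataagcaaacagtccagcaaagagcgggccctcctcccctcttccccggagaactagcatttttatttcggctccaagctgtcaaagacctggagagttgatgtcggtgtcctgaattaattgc
Shh intronic region: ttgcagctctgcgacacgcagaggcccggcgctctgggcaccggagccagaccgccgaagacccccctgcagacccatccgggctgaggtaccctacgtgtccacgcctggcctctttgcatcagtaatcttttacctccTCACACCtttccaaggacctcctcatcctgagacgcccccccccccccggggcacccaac

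The Pax9 region held 1 T-box match and 2 overlapping forkhead matches, the Pax1 region 1 forkhead match, the Shh region 1 T-box match and the Foxa2 region no match. In the central 200 bases of all 34 distal regions at the 8 loci, a forkhead match occurred in 5 (14.7%), against 5.96% of the 55088 other distal regions. T-box letters occurred in 2 of 34 (5.88%), against 2.76% elsewhere. The GATA letters AGATAA were found in 2 (5.88%), against 10.6% elsewhere, the NK2 letters CACTTGA in 1 (2.94%), against 2.80%, and the SOX letters ACAATGG in 0, against 2.32%. These shares describe letters in short windows at few regions, and were not tested.

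Pax9 and Pax1, the genes of the paired-box factors of the pouches, were the 2 loci at which the Tbx1-Cre Ctrl counts lay above those of both other groups. The share of all genes is given below for each comparison alone and not for both together, so the joint pattern has no background. At Pax9 (ENSMUSG00000001497.11, chr12:57792754-57813809, plus strand) there were 5, 6 and 7 peaks in the Tbx1-Cre Ctrl libraries, 3, 2 and 2 in the cKO libraries, and again 3, 2 and 2 in the Mesp1-Cre libraries. Every Tbx1-Cre Ctrl library was therefore above every library of the other groups. The means were 6 ± 1, 2.33 ± 0.577 and 2.33 ± 0.577 peaks (SD, n = 3 each), and both differences were 3.67 peaks. Each had p = 0.1 in an exact two-sided permutation test, which is the lowest p that 3 libraries against 3 can reach. Adjusted over all genes by the Benjamini-Hochberg method, these permutation p-values were 0.367 against cKO and 0.920 against Mesp1-Cre. Distal peaks at Pax9 numbered 4, 4 and 6 in Tbx1-Cre Ctrl, 2, 1 and 1 in the cKO libraries and 2, 1 and 1 in Mesp1-Cre.

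At Pax1 (ENSMUSG00000037034.8, chr2:147187661-147219031, plus strand) 5, 5 and 7 peaks were called in the Tbx1-Cre Ctrl libraries, 2, 1 and 2 in the cKO libraries and 4, 3 and 2 in the Mesp1-Cre libraries. Here too the Tbx1-Cre Ctrl values did not overlap those of either other group. The means were 5.67 ± 1.15, 1.67 ± 0.577 and 3 ± 1 peaks (SD, n = 3 each). Tbx1-Cre Ctrl exceeded cKO by 4 peaks and Mesp1-Cre by 2.67 peaks (exact two-sided permutation p = 0.1 for each, adjusted over all genes 0.367 and 0.920). Its distal peaks numbered 4, 3 and 4 in Tbx1-Cre Ctrl, 2, 1 and 1 in the cKO libraries and 3, 1 and 1 in Mesp1-Cre, so that the distal counts of Tbx1-Cre Ctrl and Mesp1-Cre touched at 3. With lists of equal length, made of the widest peaks, the difference between Tbx1-Cre Ctrl and cKO was -0.333 peaks at Pax9 and 0 at Pax1.

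Foxa1 (ENSMUSG00000035451.6, chr12:58641618-58647108, minus strand) held 3, 3 and 4 peaks in Tbx1-Cre Ctrl, 3, 3 and 1 in the cKO libraries and 2, 2 and 3 in Mesp1-Cre. These ranges overlapped or touched. Distal peaks alone were 2, 2 and 3 in Tbx1-Cre Ctrl and 1, 0 and 1 in Mesp1-Cre, which did not overlap (difference 1.67 peaks, exact two-sided permutation p = 0.1, adjusted over all genes 0.873). In cKO they were 2, 1 and 0. Foxa2 (ENSMUSG00000037025.5, chr2:147868613-147872705, minus strand) held 1, 2 and 5 peaks in Tbx1-Cre Ctrl, 2, 1 and 1 in the cKO libraries and 4, 1 and 4 in Mesp1-Cre. Its counts varied more within the 2 control groups than between them, and the Tbx1-Cre Ctrl mean of 2.67 ± 2.08 was below the Mesp1-Cre mean of 3 ± 1.73 (SD, n = 3 each, exact two-sided permutation p = 1).

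Nkx2-3 (ENSMUSG00000044220.11, chr19:43686815-43690381, plus strand) held 6, 3 and 5 peaks in Tbx1-Cre Ctrl, 3, 3 and 2 in the cKO libraries and 5, 3 and 3 in Mesp1-Cre. The lowest Tbx1-Cre Ctrl library matched the highest cKO libraries at 3 peaks, and the difference in means of 2 peaks had an exact two-sided permutation p = 0.3. Nkx2-1 (ENSMUSG00000001496.7, chr12:57632922-57637895, minus strand), a factor needed for the thyroid and lung, held 2, 1 and 3 peaks in Tbx1-Cre Ctrl, 1 in each cKO library and 3, 0 and 1 in Mesp1-Cre. All of them were distal. Hhex (ENSMUSG00000024986.5, chr19:37507377-37515218, plus strand) was the only regulator with no difference in mean between Tbx1-Cre Ctrl and cKO, with 1 peak in each of these 6 libraries and 2, 0 and 2 in Mesp1-Cre. Per 10000 listed peaks, its Tbx1-Cre Ctrl libraries all lay below the cKO libraries (difference -0.206, exact two-sided permutation p = 0.1). With 1 peak in each of these libraries, that order and its p followed from list length alone. The ligand gene Shh (ENSMUSG00000002633.3, chr5:28783355-28793641, minus strand) had the fewest peaks, 3, 1 and 1 in Tbx1-Cre Ctrl, 0, 0 and 1 in the cKO libraries and 2, 0 and 0 in Mesp1-Cre. For Nkx2-1, Shh and Hhex every exact two-sided permutation p on peak counts was between 0.3 and 1.

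**Figure D1:**
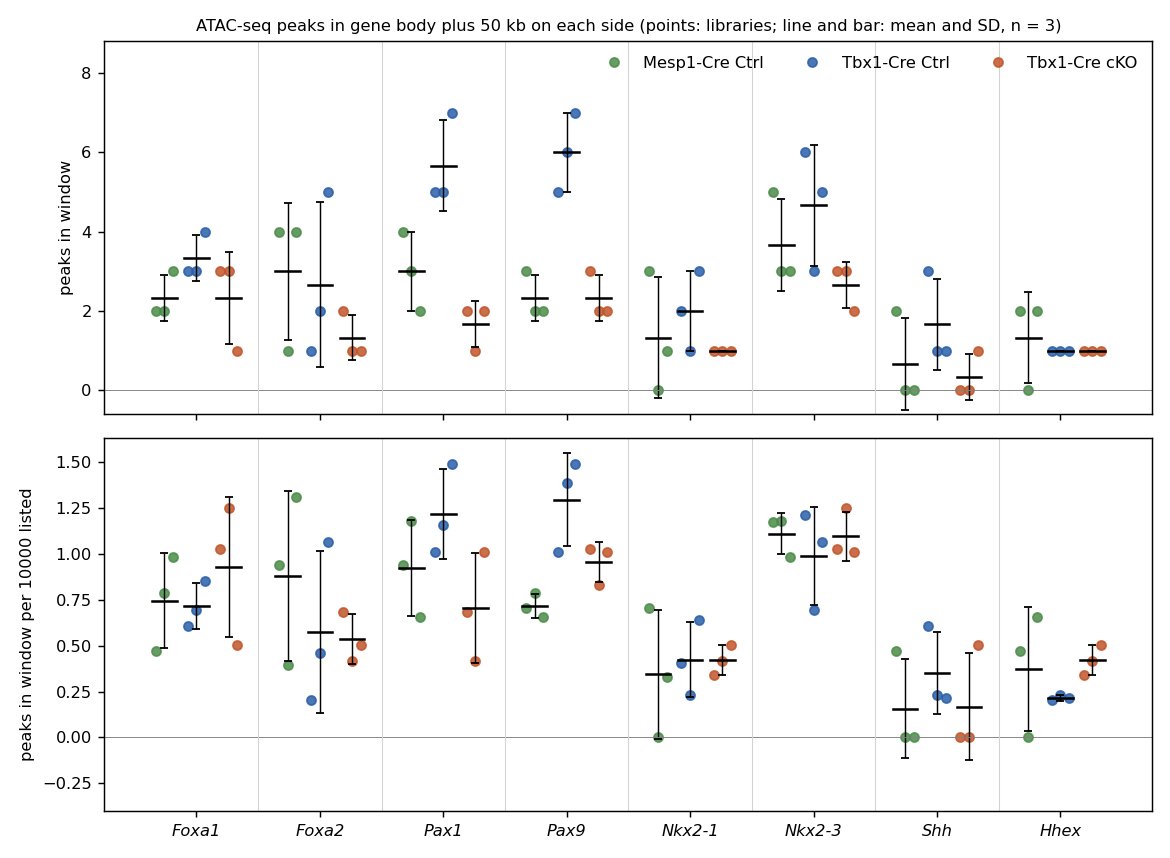
Peaks in the window of each of the 8 genes by library (points), with the group mean and SD (line and bar, n = 3); the upper panel gives peaks per window and the lower panel peaks per 10000 peaks listed. In the upper panel the Tbx1-Cre Ctrl points of Pax1 (5, 5 and 7) and Pax9 (5, 6 and 7) lie above all other points of those genes. The share of all genes with this order against both groups is not given. In the lower panel the Tbx1-Cre Ctrl and cKO points overlap for every gene except Hhex, at which all cKO points lie above the Tbx1-Cre Ctrl points. Hhex has the same count in each of these libraries, so its order there follows from list length alone.

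Across the 8 windows, every Tbx1-Cre Ctrl library was above every cKO library at 2 genes (Pax1 and Pax9), both with all peaks, where 27.1% of the 20127 genes did the same, and with distal peaks, where 25.3% of 18473 genes did. The count at the 8 genes was thus close to the background. Tbx1-Cre Ctrl was above Mesp1-Cre at 2 genes with all peaks (Pax1 and Pax9, background 10.4%) and at 2 genes with distal peaks (Foxa1 and Pax9, background 11.1%). Mesp1-Cre was above cKO at 0 of 8 genes, against a background of 6.22% with all peaks and 6.26% with distal peaks. Both of the first comparisons use the same Tbx1-Cre Ctrl libraries. No gene of the 20127 had an adjusted p under 0.05 in any comparison, which 3 libraries against 3 cannot give even unadjusted. Leaving out Tbx1-Cre Ctrl replicate 2, the shortest list of its group, raised the count above cKO from 2 to 4 with all peaks and with distal peaks. Without Mesp1-Cre replicate 1 the count above Mesp1-Cre was 3 with all peaks and 4 with distal peaks. No share over all genes is given for these settings, so the rises cannot be set against a background.

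The mean was higher in Tbx1-Cre Ctrl than in cKO at 7 of the 8 genes, as at 86.3% of all genes, and the median difference was 1.33 peaks for the 8 genes and for all genes. Against Mesp1-Cre the Tbx1-Cre Ctrl mean was higher at 6 genes and lower at Foxa2 and Hhex, and 73.2% of all genes were higher. The median difference there was 1 peak for the 8 genes and 0.667 for all genes. A window of the 8 genes held a median of 3 peaks in Tbx1-Cre Ctrl, 1.5 in the cKO libraries and 2.33 in Mesp1-Cre, below the medians of all genes of 4.33, 2.67 and 3.33. Their distal peaks lay on the other side of the genome, with medians of 2.33, 1.17 and 1.33 against 1.67, 0.667 and 1.

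Because list length differed between groups, the counts were repeated with the 19772 widest peaks of each library. That number is the whole list of cKO replicate 3. Only the other lists lost their narrower peaks, and the Tbx1-Cre Ctrl lists lost the most, so the lowest width kept differed between libraries. At 0 of 8 genes did the Tbx1-Cre Ctrl libraries then lie above cKO (1.20% of all genes) or above Mesp1-Cre (1.97%). Pax1 held 2, 2 and 1 such peaks in Tbx1-Cre Ctrl, 2, 1 and 2 in the cKO libraries and 2, 1 and 0 in Mesp1-Cre. Pax9 held 1, 2 and 1 in Tbx1-Cre Ctrl, 1, 2 and 2 in the cKO libraries and 1, 2 and 1 in Mesp1-Cre. The sum over the 8 windows was 7, 8 and 6 in Tbx1-Cre Ctrl, 8, 6 and 11 in the cKO libraries and 9, 5 and 4 in Mesp1-Cre, so that the order seen with the full lists was not present among the widest peaks. With the full lists the sums were 26, 22 and 33 in Tbx1-Cre Ctrl, 15, 12 and 11 in the cKO libraries and 25, 11 and 17 in Mesp1-Cre. Per 10000 listed peaks these were 5.78 ± 1.07, 5.23 ± 0.299 and 5.25 ± 0.821 (SD, n = 3 each), which differed by less than the spread of the Tbx1-Cre Ctrl libraries. Per 10000 distal peaks of the library, the distal sums were 6.996 ± 1.30, 8.95 ± 1.73 and 6.55 ± 2.07 (SD, n = 3 each).

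The 6 Tbx1-Cre libraries, whose lineage includes endoderm and ectoderm besides mesoderm, were then compared with the 3 Mesp1-Cre libraries by the share of each library's distal peaks that lay in a window. Pax9 held 1.39 ± 0.314 of every 10000 distal peaks in the Tbx1-Cre libraries (SD, n = 6) and 0.739 ± 0.103 in the Mesp1-Cre libraries (SD, n = 3). This difference of 0.646 had p = 0.0119 in the exact two-sided permutation test, the lowest value its 84 relabellings allow. Every Tbx1-Cre library was above every Mesp1-Cre library on this scale, and the share of all genes with this order is not given. As raw counts of distal peaks, the cKO and Mesp1-Cre libraries held the same 2, 1 and 1 peaks at Pax9, and the difference between the 6 and the 3 libraries was 1.67 peaks (exact permutation p adjusted over all genes 1). With the same counts, the order of cKO and Mesp1-Cre at Pax9 on the share scale followed from their totals of distal peaks. Pax1 held 1.22 ± 0.156 against 0.865 ± 0.253 (difference 0.353, exact two-sided permutation p = 0.0357). Its raw distal counts were 2, 1 and 1 in the cKO libraries and 3, 1 and 1 in Mesp1-Cre. After adjustment over all 18473 genes these permutation p-values were 0.571 and 0.790. Without Mesp1-Cre replicate 1 the differences were 0.653 at Pax9 and 0.486 at Pax1. The remaining 6 genes had exact permutation p-values of 0.155 to 0.988, with a difference of -0.618 at Foxa2, which was lower in the Tbx1-Cre libraries. A p under 0.05 was found at 1005 of the 18473 genes and an adjusted one at 0, so neither gene passed the test across the genome. The mean share was higher in the Tbx1-Cre libraries at 6 of the 8 genes and at 53.9% of all genes, with medians of the difference of 0.243 and 0.0450. With windows of 100 kb on each side the differences at Pax1 and Pax9 changed sign, to -0.0507 and -0.0973, and with lists of equal length they were 0.617 and 0.170.

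The peaks themselves took up few positions at each locus. At Pax9 there were 7 regions. A region called in all 9 libraries lay 10266 bp upstream of the TSS (chr12:57781987-57782990, intergenic), with widths of 847, 712 and 701 bp in Tbx1-Cre Ctrl, 560, 311 and 355 bp in the cKO libraries and 510, 525 and 434 bp in Mesp1-Cre. Every Tbx1-Cre Ctrl peak there was wider than every other. Tbx1-Cre Ctrl peaks were also the widest over the genome's shared regions (below), and the share of regions with complete separation is not given. A second region found in all 9 libraries lay 9 bp from an internal TSS of Pax9 (chr12:57796554-57796896, in a UTR exon) and was narrow throughout, between 213 and 302 bp. The intronic Pax9 region whose sequence is given above (chr12:57793659-57794258, 1204 bp downstream of a TSS) was called with widths of 568, 211 and 317 bp in Tbx1-Cre Ctrl only. The region at chr12:57819035-57819772, 22687 bp downstream of a Pax9 TSS and in an intron of Slc25a21, had peaks of 305, 738 and 353 bp in Tbx1-Cre Ctrl, 1 of 258 bp in Mesp1-Cre replicate 1 and none in cKO. A peak at the outermost Pax9 TSS (chr12:57792502-57792761) was called in Tbx1-Cre Ctrl replicate 2 alone. Regions at chr12:57798146-57798384 and chr12:57800632-57801176, both in introns of Pax9, were called in 2 Tbx1-Cre Ctrl libraries each and nowhere else.

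Pax1 also had 7 regions, 3 of them at annotated starts. The first (chr2:147187839-147188529, in a coding exon 523 bp from the TSS) was called in 3 Mesp1-Cre, 3 Tbx1-Cre Ctrl and 1 cKO library. Its peaks were 578, 691 and 520 bp wide in Tbx1-Cre Ctrl, 611, 204 and 292 bp in Mesp1-Cre and 200 bp in cKO replicate 3. It also lay 39 bp from a TSS of AI646519, so the peak cannot be assigned to 1 of the 2 genes. The second (chr2:147190877-147191353) was called in 1 Mesp1-Cre, 2 Tbx1-Cre Ctrl and no cKO library, and the third (chr2:147193976-147194211) in Tbx1-Cre Ctrl replicate 3 only. The upstream region whose sequence is printed (chr2:147185471-147185930) lay 1961 bp before the TSS, with peaks of 236, 377 and 460 bp in Tbx1-Cre Ctrl and none elsewhere. The distal region found most often (chr2:147199226-147199883, a UTR exon of Pax1) was called in 2 Mesp1-Cre, 3 Tbx1-Cre Ctrl and 2 cKO libraries.

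**Figure D2:**
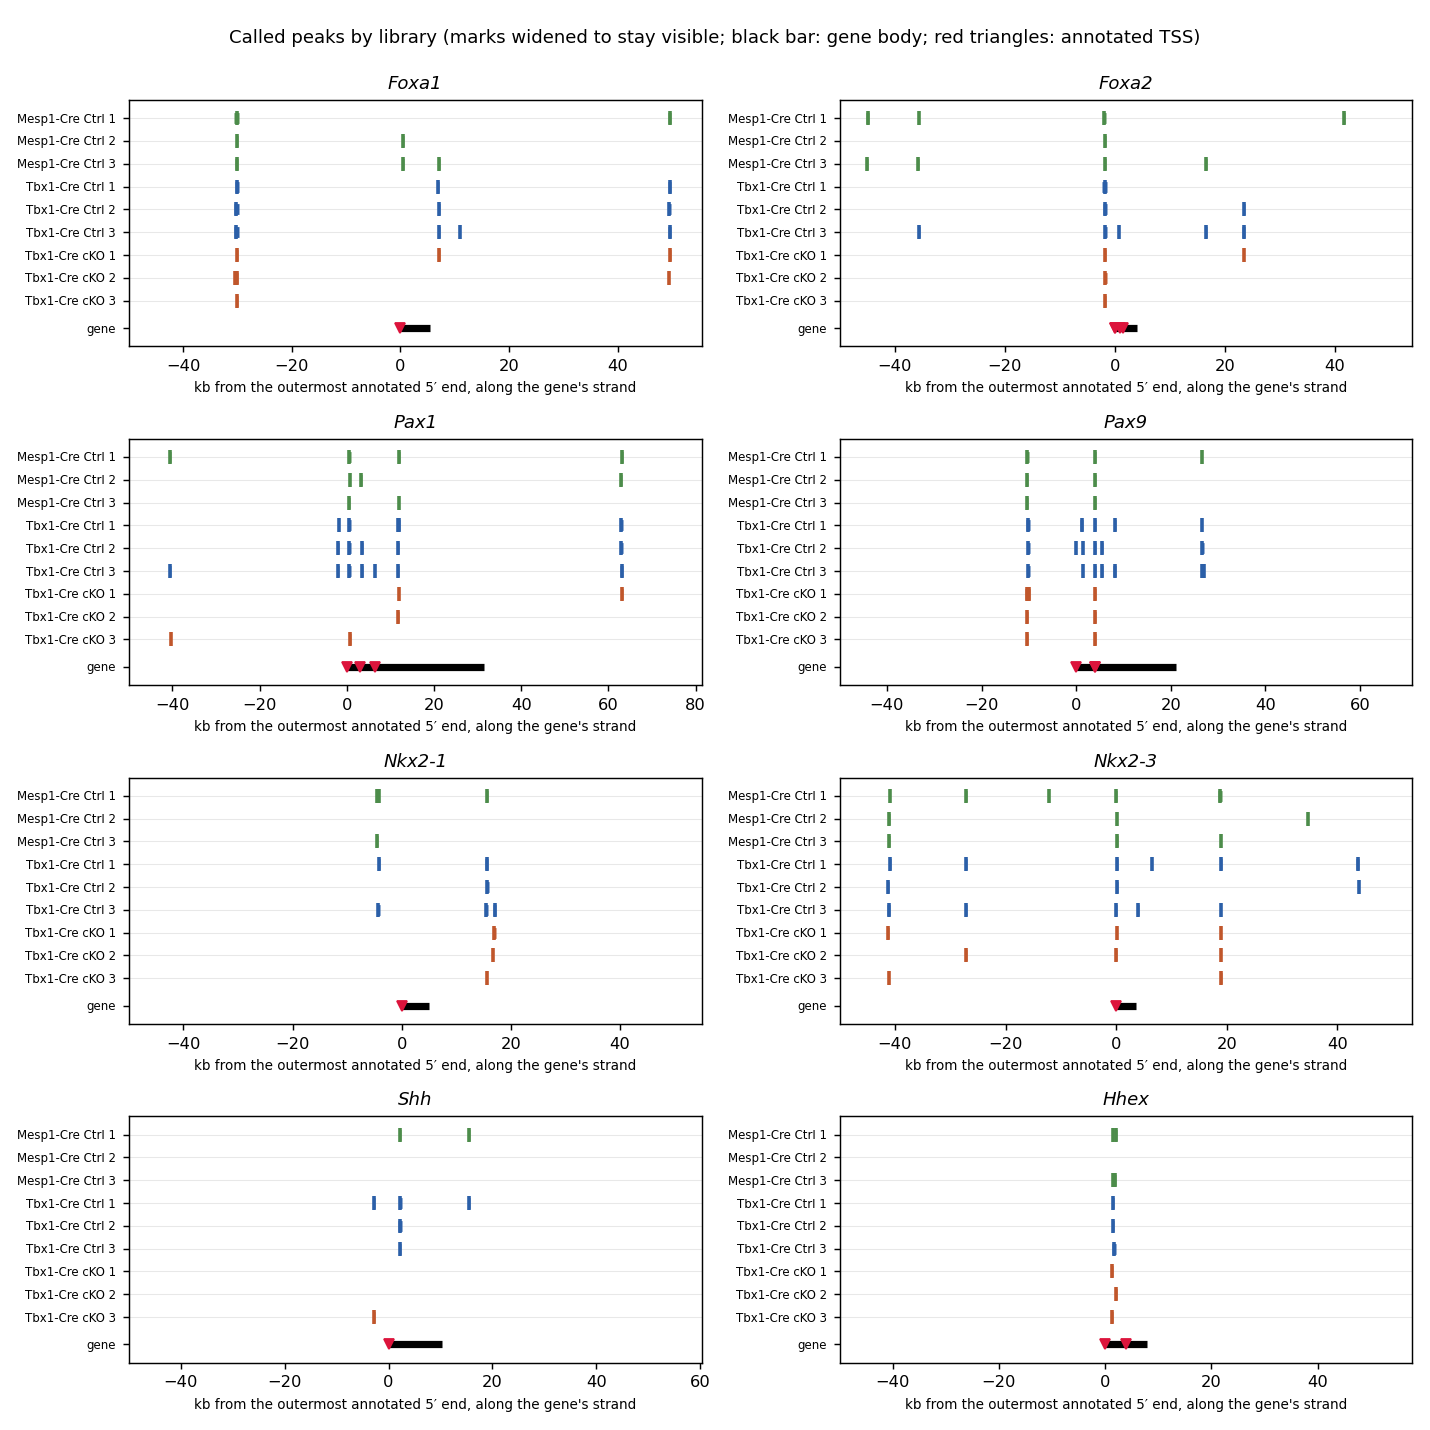
Called peaks along the 8 loci in the 9 libraries, with distance in kb from the outermost annotated 5′ end along the gene's strand; the black bar is the gene body and red triangles are annotated TSS. Peaks recur at the same few positions, for example in all 9 libraries 10266 bp upstream of Pax9, whereas the intronic Pax9 and upstream Pax1 peaks described in the text appear in the 3 Tbx1-Cre Ctrl rows only.

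At Foxa2 the region 1830 bp upstream of the TSS (chr2:147874119-147874952) was called in all 9 libraries, 800, 635 and 613 bp wide in Tbx1-Cre Ctrl, 263, 538 and 287 bp in the cKO libraries and 502, 251 and 340 bp in Mesp1-Cre. A region 44949 bp upstream (chr2:147917340-147917969) was called in 2 Mesp1-Cre libraries, at 583 and 344 bp, and in no Tbx1-Cre library. Another 35543 bp upstream (chr2:147908022-147908475) was called in 2 Mesp1-Cre libraries and 1 Tbx1-Cre Ctrl library. The Foxa2 promoter peak (chr2:147871867-147872081) was called in Tbx1-Cre Ctrl replicate 3 alone, at 215 bp. At Foxa1 the widest region of the window was the promoter of another gene, Ttc6 (chr12:58676820-58677806, 30205 bp upstream of Foxa1 and 509 bp from a Ttc6 TSS), which was called in all 9 libraries. The Foxa1 promoter itself (chr12:58646454-58646687, 538 bp into the gene) was called in Mesp1-Cre replicates 2 and 3 only, at 199 and 202 bp, the narrow end of those lists. The distal region found most often, 49561 bp downstream (chr12:58597211-58597883, in a UTR exon of Mipol1), was called in 1 Mesp1-Cre, 3 Tbx1-Cre Ctrl and 2 cKO libraries.

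The single region of Hhex (chr19:37508569-37509578, in a UTR exon) was called in 8 of 9 libraries, all but Mesp1-Cre replicate 2. Its peaks were 519, 503 and 872 bp wide in Tbx1-Cre Ctrl, 201, 209 and 282 bp in the cKO libraries and 510 and 439 bp in the other 2 Mesp1-Cre libraries, so that every cKO peak was narrower than every control peak. cKO peaks were also the narrowest over the genome's shared regions (below), and the share of all regions with this order is not given. It counted as distal because it lay 1696 bp from the nearest annotated TSS, but the RefSeq promoter of Hhex matched mm9 once, inside this region (chr19:37509081-37509380). At Nkx2-3, 9 regions were found, of which 4 were called in 1 library each. The region at the Nkx2-3 TSS (chr19:43686580-43687117, 33 bp from the TSS) and the one 41089 bp upstream (chr19:43645415-43646037) were each called in 8 of 9 libraries, both in 3 Mesp1-Cre, 3 Tbx1-Cre Ctrl and 2 cKO libraries. Nkx2-1 had 4 regions, the one called most often lying 15608 bp downstream of the TSS (chr12:57621967-57622607), with peaks of 481, 542 and 508 bp in Tbx1-Cre Ctrl, 259 bp in Mesp1-Cre replicate 1 and 239 bp in cKO replicate 3. At Shh the intronic region 2163 bp from the TSS (chr5:28791111-28791845) had peaks of 491, 735 and 276 bp in Tbx1-Cre Ctrl, 389 bp in Mesp1-Cre replicate 1 and none in cKO. It lay 1436 bp from a TSS of Gm17493.

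**Figure D3:**
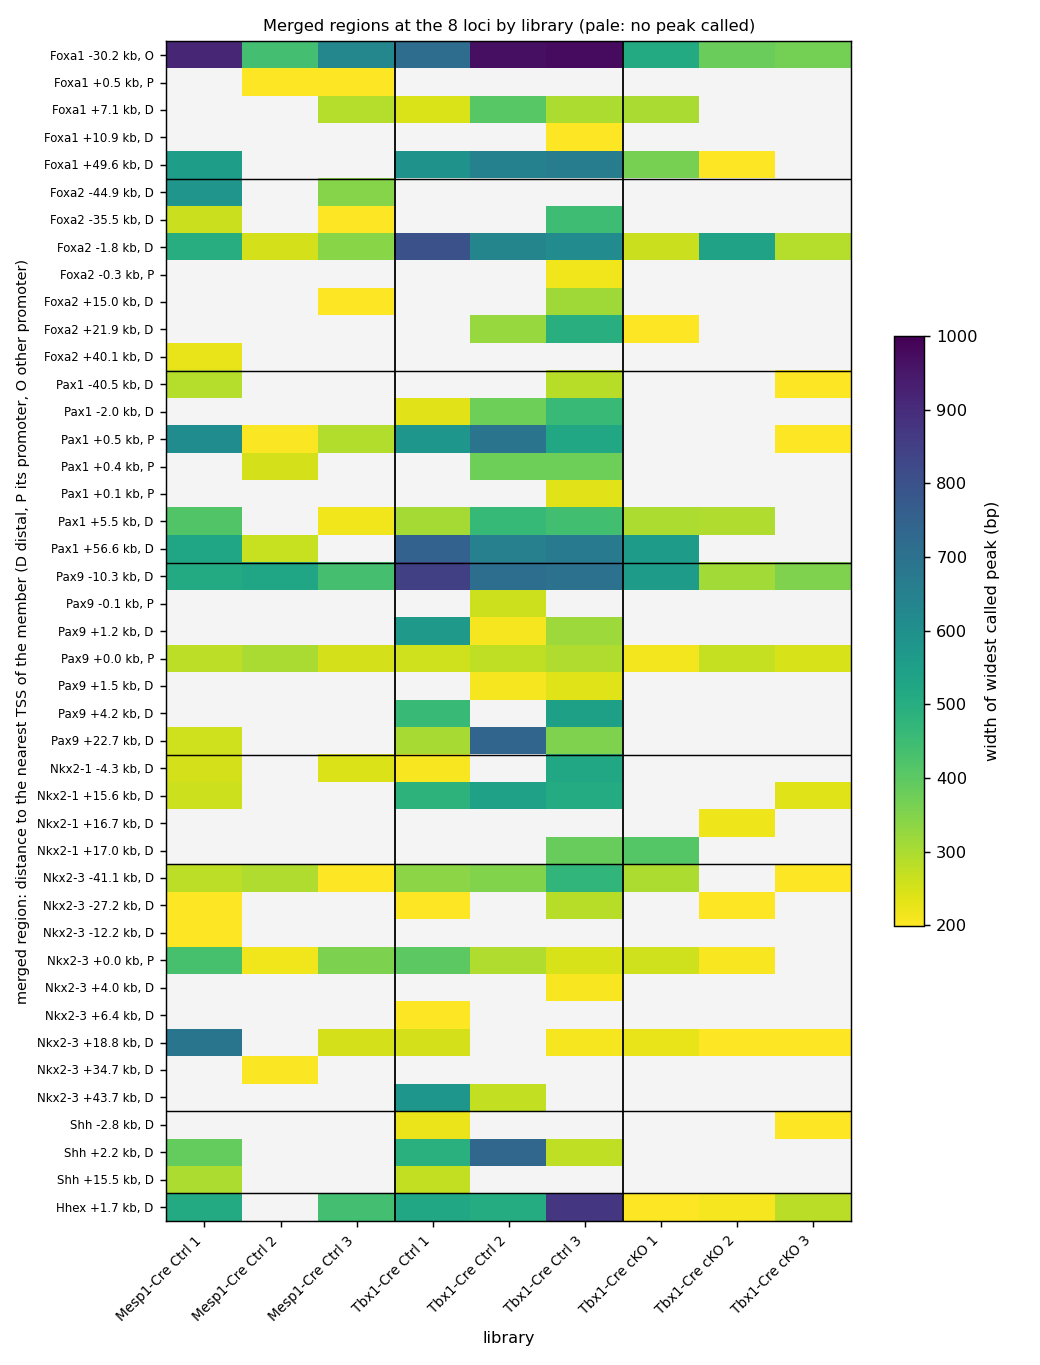
Width in bp of the widest called peak (colour) for each of the 43 merged regions (vertical axis, by gene and distance to its nearest TSS in kb) in the 9 libraries (horizontal axis); pale cells hold no peak. In total 37 regions have a peak in a Tbx1-Cre Ctrl library, 28 in a Mesp1-Cre library and 20 in a cKO library. The Tbx1-Cre Ctrl lists were also the longest, and no share of all merged regions is given for these counts.

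Of the 43 regions, 37 had a peak in at least 1 Tbx1-Cre Ctrl library, 28 in at least 1 Mesp1-Cre library and 20 in at least 1 cKO library. Only 1 was called in cKO without Tbx1-Cre Ctrl, a region of 220 bp at Nkx2-1 (chr12:57621111-57621330). No share of all merged regions is given for these counts. The Tbx1-Cre Ctrl lists were also the longest, so the order of the groups cannot be read as particular to these loci. A peak in all 3 Tbx1-Cre Ctrl and no cKO library was found at 4 regions (9.30%), 2 at Pax9, 1 at Pax1 and 1 at Shh, against 6.73% of all 73341 merged regions. All 3 Tbx1-Cre Ctrl and no Mesp1-Cre library called 2 regions (4.65%), the Pax9 and Pax1 regions shown above, against 5.59% of all regions, and the count was 6 without Mesp1-Cre replicate 1 and 4 without Tbx1-Cre Ctrl replicate 1. For the counts with a library left out, no share of all regions is given. No region was called in all 6 Tbx1-Cre and no Mesp1-Cre library (background 0.228%), and none in 3 Mesp1-Cre and no Tbx1-Cre Ctrl library (background 0.731%). Peaks in all 9 libraries were found at 4 regions (9.30%), against 18.6% of all regions. Regions called in 1 library only made up 10 of 43 (23.3%) and 31.6% of all regions. For the first 2 of these patterns the count at the 43 regions was within 2 regions of what the background share gives.

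In the 4 regions called in all 9 libraries, the median peak width per library was 757, 674 and 657 bp in Tbx1-Cre Ctrl, 386, 346 and 321 bp in the cKO libraries and 506, 371 and 387 bp in Mesp1-Cre. The group means were 696 ± 53.6, 351 ± 32.8 and 421 ± 73.9 bp (SD, n = 3 each). Over the 13645 such regions of the genome they were 830 ± 23.1, 636 ± 53.2 and 720 ± 71.0 bp. In each group the 4 regions had narrower peaks than the genome's median, and Tbx1-Cre Ctrl was the widest group in both sets.

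Promoter peaks were counted next, at the own start sites of each gene. Only Pax9 had a peak within 1 kb of an own TSS in all 9 libraries, 1 of 8 genes against 54.0% of all genes, and Nkx2-1, Shh and Hhex had none in any library, 3 of 8 against 26.7%. Between them were Nkx2-3 with 8 libraries, Pax1 with 7, Foxa1 with 2 and Foxa2 with 1. The result for Hhex depends on the annotated TSS. Its RefSeq promoter lay inside the region counted as distal, which was called in 8 of 9 libraries. Per library, 3, 3 and 4 of the 8 promoters held a peak in Tbx1-Cre Ctrl, 2 in each cKO library and 3, 4 and 4 in Mesp1-Cre. Among all genes the share was 67.9 to 68.9%, 58.1 to 64.0% and 62.3 to 68.9%. When the promoter was widened to 2 kb, a setting added after the data were seen, Foxa2 and Pax9 had a peak in all 9 libraries, Hhex in 8, and only Nkx2-1 and Shh had none. That gave 2 of 8 genes with a peak in all libraries against 55.8% of all genes, and 2 of 8 with none against 24.1%.

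**Figure D4:**
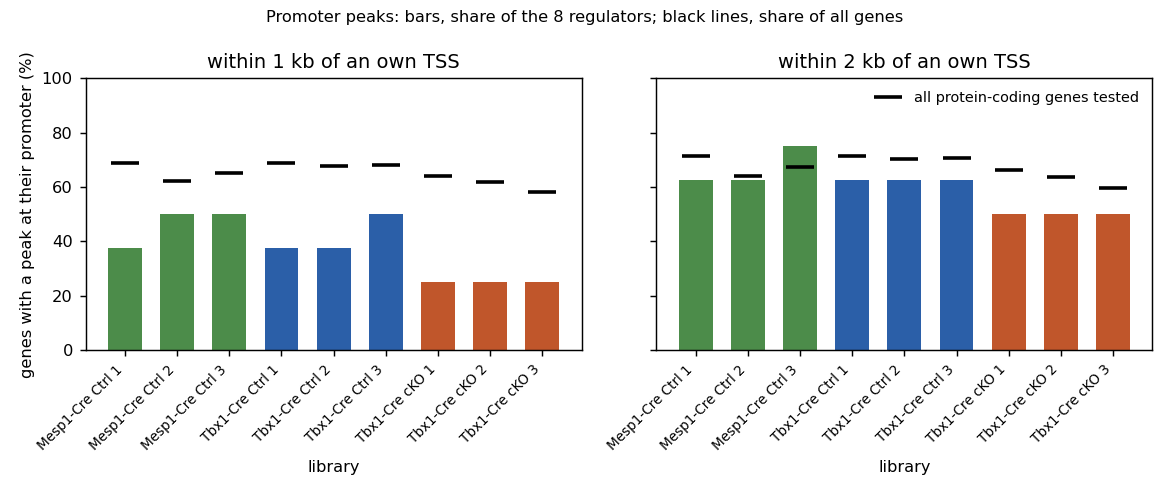
Share of the 8 genes with a peak at an own TSS in each library (bars, percent) and the same share of all 20127 genes tested (black lines), for a distance of 1 kb (left) and 2 kb (right). At 1 kb every bar lies below its line, with 2 of 8 genes in each cKO library, and at 2 kb the bar of Mesp1-Cre replicate 3 lies above its line.

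Promoter sequences from RefSeq (GRCm38.p6) were matched by symbol for 7 of the 8 genes. Those of Nkx2-1, which had no peak in any library, and Nkx2-3, which had one in 8, are shown as the contrast between these related homeodomain genes, chosen after their values were seen. Each is the 250 bases before the start, on the gene's strand, at chr12:56536909-56537158 (minus) and chr19:43612075-43612324 (plus) of that build, with CpG dinucleotides in capitals.
Nkx2-1 promoter: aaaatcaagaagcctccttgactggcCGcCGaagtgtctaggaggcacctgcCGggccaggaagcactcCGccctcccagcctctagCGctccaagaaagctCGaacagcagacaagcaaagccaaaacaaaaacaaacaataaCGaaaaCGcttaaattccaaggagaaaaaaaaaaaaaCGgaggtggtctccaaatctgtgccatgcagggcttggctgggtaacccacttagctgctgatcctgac
Nkx2-3 promoter: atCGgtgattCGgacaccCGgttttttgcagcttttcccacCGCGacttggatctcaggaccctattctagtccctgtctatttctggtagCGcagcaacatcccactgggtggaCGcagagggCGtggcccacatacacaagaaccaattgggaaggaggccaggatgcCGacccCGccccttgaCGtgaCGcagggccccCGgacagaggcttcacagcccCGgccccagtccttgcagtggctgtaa

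There were 9 CpG in the Nkx2-1 sequence and 14 in that of Nkx2-3. Over the full 300 bases of the RefSeq entries, from 250 before the start to 50 after it, the observed-to-expected CpG ratio was 0.559 for Nkx2-1 and 0.559 for Nkx2-3, so the 2 promoters had the same ratio at this precision. Foxa1, with a ratio of 0.929, and Hhex, with 0.878, had the highest among the 9 promoters of the regulators, and all 9 lay above the median of 0.384 over 32851 promoters. The nearest region called in any library was 3785 bp from the Nkx2-1 promoter, whereas the Nkx2-3 promoter overlapped one.

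Other genes of the same tissue and pathway were counted by lists, to be read against the shares over all genes of 27.1% with Tbx1-Cre Ctrl above cKO, 10.4% with Tbx1-Cre Ctrl above Mesp1-Cre and 54.0% with a promoter peak in all 9 libraries. Among 14 further endoderm and pouch genes, Tbx1-Cre Ctrl was above cKO at 5 (Foxa3, Ripply3, Nkx2-6, Nkx2-9 and Eya1) and above Mesp1-Cre at 3 (Sox2, Nkx2-9 and Eya1), and 2 of the 14 promoters had a peak in all 9 libraries. With lists of equal length these counts were 0 and 1. For 9 genes of the hedgehog pathway, which carries the SHH signal, Tbx1-Cre Ctrl was above cKO at 6, among them the receptor gene Ptch1 and the effector genes Gli2 and Gli3, and above Mesp1-Cre at 1 (Gas1). A promoter peak in all 9 libraries was found at 7 of these 9 genes, against 54.0% of all genes, and at Shh in none. Of 7 epithelial genes, Tbx1-Cre Ctrl was above cKO at 2 and above Mesp1-Cre at 1 (Grhl2), and 0 had a promoter peak in all 9 libraries. For the 9 cardiopharyngeal mesoderm genes analysed the counts were 4 and 0, for 6 blood and endothelial genes 2 and 0, and for 3 neural crest genes 2 and 0. With equal lists no gene of these last 5 lists was above cKO or above Mesp1-Cre. The windows of the 7 epithelial genes held 32 to 46 peaks per Tbx1-Cre Ctrl library, 23 to 28 per cKO library and 26 to 38 per Mesp1-Cre library, and those of the 9 mesoderm genes 34 to 46, 18 to 28 and 27 to 45. Windows of the 9 hedgehog genes held more, 82 to 100, 38 to 54 and 54 to 83. How far these higher numbers entered the hedgehog count above cKO was not tested. The part of such shifts in the counts at the 8 regulators was not tested.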

How the data were processed

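The deposited lists give a chromosome, a start and an end for each peak and no other value (peak intervals in bp, with no signal or score). Per the methods and labels, the authors trimmed adapters with cutadapt and aligned reads to mm9 with Bowtie2 2.3.4.3. They kept unique concordant pairs and removed PCR duplicates and mitochondrial reads. Peaks were called in each library, not pooled, with MACS2 2.1.2.179, although the methods name a different MACS2 version. Although the Mesp1-Cre lists hold 2 mitochondrial peaks each, they were used as deposited. The main text states fewer ATAC-seq replicates than its sample summary, and all 3 libraries per group were used.

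Peaks were assigned by midpoint with an mm9 gene annotation. Group differences in peaks per window were compared by exact two-sided permutation tests (20 relabellings for 3 against 3, 84 for 6 against 3) over all protein-coding genes, with Benjamini-Hochberg adjustment. The study's count model on reads could not be used on peak lists. Each p-value is the share of relabellings of these libraries with a difference in means at least as large as the observed one. All 8 genes were named, with regions named by position, by number of libraries and by pattern, except the Shh sequence and the promoter sequences. The genes and the lists were chosen with earlier results of these data known, and 2 genes of the lists are not reported here. Alternatives were equal list length, the widest 75% of peaks, windows of 10 and 100 kb, a 2 kb promoter limit, shares of listed peaks, raw distal counts and leaving out each library. Python 3.11.15 was used with numpy 2.4.6, scipy 1.17.1, pandas 2.3.3 and matplotlib 3.10.9, and the procedures were checked on simulated data.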

Additional observations from a re-analysis of the deposited data

How the results depend on the processing

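Most counts changed with lists of equal length, a setting that also drops the narrower peaks of the longer lists. With the same number of widest peaks in every list, 0 of 8 genes had all Tbx1-Cre Ctrl libraries above all cKO libraries or above all Mesp1-Cre libraries, with all peaks and with distal peaks, and 0 regions were called in 3 Tbx1-Cre Ctrl and no cKO library or in 3 Tbx1-Cre Ctrl and no Mesp1-Cre library. Regions in all 9 libraries then numbered 2, promoters with a peak in all 9 libraries 0 and promoters with none 5. Per 10000 listed peaks the counts of genes were 0 above cKO and 1 above Mesp1-Cre, with all and with distal peaks. The widest 75% of peaks gave 1 gene above cKO and 1 above Mesp1-Cre with all peaks, 2 and 2 with distal peaks, and 2 regions in all 9 libraries. A distal limit of 2 kb gave 0 genes above cKO and 1 above Mesp1-Cre with distal peaks, and a promoter limit of 2 kb gave 2 promoters with a peak in all 9. With windows of 10 kb, Mesp1-Cre was above cKO at 1 gene with all peaks and 0 with distal peaks, and 2 regions were called in all 9 libraries. With windows of 100 kb, Tbx1-Cre Ctrl was above cKO at 4 genes with all and with distal peaks, and 9, 4, 1 and 11 regions had the patterns of 3 Tbx1-Cre Ctrl and no cKO, 3 Tbx1-Cre Ctrl and no Mesp1-Cre, 6 Tbx1-Cre and no Mesp1-Cre, and all 9 libraries. Apart from equal lists with all peaks and the 2 kb promoter limit, no background share is given for these settings. The cause of these shifts was not tested beyond the construction of each setting.

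When single libraries were left out, there were 2 to 4 genes above cKO with all and with distal peaks (4 without Tbx1-Cre Ctrl replicate 2), 2 to 3 above Mesp1-Cre with all peaks and 2 to 4 with distal peaks (4 without Mesp1-Cre replicate 1), and 0 to 2 genes with Mesp1-Cre above cKO in either class (2 without Mesp1-Cre replicate 2). Regions in 3 Tbx1-Cre Ctrl and no cKO library ranged from 4 to 6, those with no Mesp1-Cre library from 2 to 6, those in 3 Mesp1-Cre and no Tbx1-Cre Ctrl library from 0 to 1, and those in all 9 libraries from 4 to 5. These counts too have no background share beside them.

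Differences in means changed sign as follows. For Tbx1-Cre Ctrl minus cKO, equal lists gave -0.333 peaks at Pax9, -0.667 at Nkx2-1 and -0.667 at Nkx2-3, and peaks per 10000 gave -0.210 at Foxa1 and -0.105 at Nkx2-3. For Tbx1-Cre Ctrl minus Mesp1-Cre, equal lists gave 0.333 at Foxa2 and -0.667 at Nkx2-3, the widest 75% gave 1 at Foxa2 and 0.333 at Hhex, windows of 10 kb gave 0.333 at Foxa2 and -0.333 at Nkx2-1, windows of 100 kb gave 1 at Foxa2 and 0.333 at Hhex, and peaks per 10000 gave -0.0288 at Foxa1 and -0.121 at Nkx2-3. For Mesp1-Cre minus cKO, equal lists gave -0.667 at Pax1, -0.667 at Nkx2-1 and -0.333 at Shh, the widest 75% gave -0.333 at Nkx2-1, and peaks per 10000 gave -0.0776 at Nkx2-1, -0.0123 at Shh and -0.0466 at Hhex. Over the libraries left out, Foxa2 ranged from -1.5 to 0.5 for Tbx1-Cre Ctrl minus Mesp1-Cre, and for Mesp1-Cre minus cKO Nkx2-1 ranged from -0.5 to 1 and Shh from -0.333 to 0.667. For the distal share in 6 Tbx1-Cre minus 3 Mesp1-Cre libraries, equal lists gave 0.187 at Foxa2, the widest 75% gave 0.366 at Foxa2, -0.332 at Nkx2-3, -0.140 at Shh and 0.111 at Hhex, windows of 10 kb gave 0.0550 at Foxa2 and -0.356 at Nkx2-1, and windows of 100 kb gave -0.0507 at Pax1 and -0.0973 at Pax9. Leaving out libraries gave ranges of -0.0527 to 0.513 at Nkx2-1, -0.106 to 0.296 at Nkx2-3 and -0.338 to 0.291 at Hhex.

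Replicate numbers were not used as pairs in the main tests. Deviations of same-numbered libraries from their group means, across genes, correlated at 0.0271 to 0.364 between Tbx1-Cre Ctrl and cKO, at 0.0527 to 0.427 between Tbx1-Cre Ctrl and Mesp1-Cre, and at 0.0504 to 0.423 between Mesp1-Cre and cKO. All were positive. No values for libraries of different numbers are given, so pairing by number was not tested. With the replicate block, a sign-flip within numbers, the differences were unchanged by construction, at 3.67 peaks for Pax9 and 4 for Pax1 against cKO, each with an exact p of 0.25, the smallest that 3 pairs allow.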
